A study of Mus musculus with 6 samples.

Results

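The autophagy machinery and the lysosome were examined through 49 genes chosen by name: 5 autophagy receptors, 5 genes of the ATG8 family, 28 core Atg genes, 2 transcription factors of the MiT family and 9 lysosomal genes. Of 23393 named genes in the count table, 48 carried the listed symbol, and the remaining one, Atg101, stood under an older symbol and was included. All 49 had enough counts to be tested, but Atg9b did so only through the tumour libraries. The samples were small intestine of C57BL/6 mice aged 12 weeks, with 3 mice in each of 2 groups. The control mice (WT intestine) were Villincre-negative and carried floxed alleles of the atypical protein kinase C genes, written PKClambda f/f, PKCzeta f/f. The other mice were Villincre-positive with the same floxed alleles, so that both kinases are deleted in the epithelial cells in which the Villin promoter is active, and the sampled tissue was small intestinal tumour (DKO tumour). Genotype and tumour state changed together and cannot be told apart. The samples are pieces of whole tissue, so fewer cells of a type and less RNA per cell cannot be told apart either.

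Autophagy encloses cytoplasm in a double membrane, the autophagosome, and delivers it to the lysosome for breakdown. A kinase complex starts the process, a lipid kinase complex marks the membrane, ATG9 vesicles and ATG2 supply lipid, and a conjugation system attaches ATG8 proteins to the growing membrane, where receptors such as p62 (Sqstm1) bind ATG8 and carry cargo in. In the intestine this pathway is known for its part in Paneth cell secretion and in the handling of bacteria. The atypical protein kinases C bind p62 through their PB1 domains, which ties the deleted kinases to this pathway.

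Atg9b was far higher in DKO tumours than in WT intestine, and most other members differed little. Besides Atg9b, the lysosomal genes Ctsl, Neu1 and Ctsd, the ATG8 gene Gabarapl1 and the initiation gene Atg101 were called higher. The receptors Optn and Nbr1, the ATG8 gene Gabarap, the core genes Rb1cc1, Ulk2, Atg4c and Atg4d and the lysosomal gene Hexa were called lower. A call is a Benjamini-Hochberg adjusted p under 0.05 in edgeR's quasi-likelihood test over all 13866 genes tested. In all, 6 of 49 members (12.2%) were called higher, against 15.9% of all genes tested, and 8 (16.3%) lower, against 13.8%. Both shares lie near those of all genes, so the set as a whole did not stand out. Atg9b, which entered the test through the tumours alone, counts among the 6 called higher. The median size of the log2 fold change was 0.305 over the members and 0.412 over all genes tested, and 4 members (8.16%) changed by at least 2-fold, against 18.9% of all genes. The median signed change was -0.10 over the members and 0.02 over all genes. Scaling by library totals turned the balance to 10 members higher and 2 lower, beside 3779 and 1065 of all genes tested. The medians became 0.16 for the members and 0.27 for all genes. Leaving out 1 library gave 2 to 8 members higher and 1 to 9 lower, beside 1159 to 2368 and 883 to 2129 of all genes. Leaving out WT intestine 2 gave 2 members higher and 2 lower, and leaving out WT intestine 3 gave 3 and 5. The refit lacking DKO tumour 2 gave 6 and 4, and that lacking DKO tumour 3 gave 4 and 1. The tumour and WT libraries did not overlap, tumours above WT, in 11 members (22.4%, against 25.1% of all genes), and tumours below WT in 14 (28.6%, against 22.9%).

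**Figure D1:**
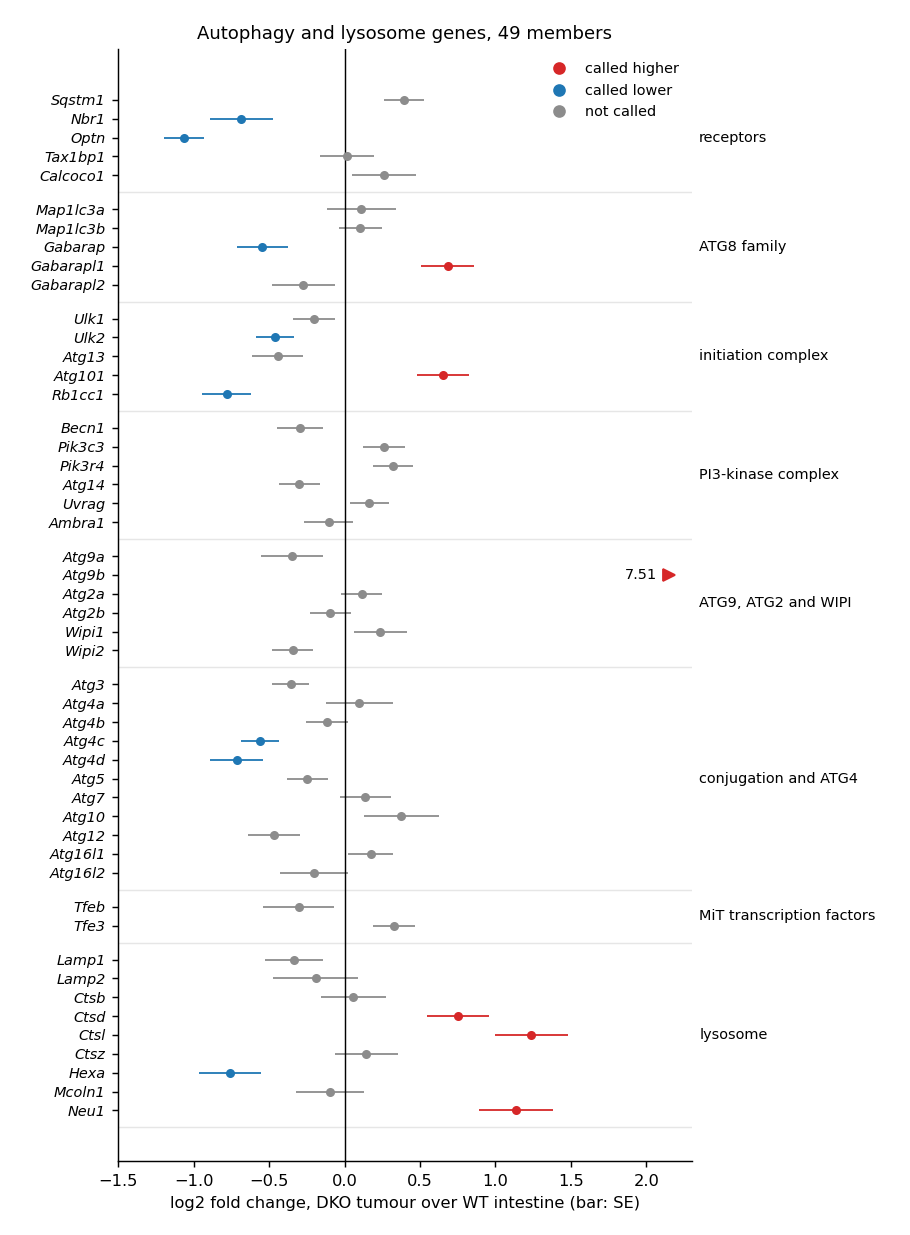
Log2 fold change (DKO tumour over WT intestine) with its SE for the 49 members, ordered by their place in the pathway. Red points were called higher, blue points lower and grey points not called. Atg9b, at 7.51, lies beyond the axis and is drawn as an arrow, and 35 members were not called.

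Totals over named genes ran from 12491561 to 15799269 counts a library. The targeted gene Prkcz was called lower (log2 fold change -1.99, SE 0.15, adjusted p = 0.000233), while Prkci was at 53.3 to 80.7 CPM in WT intestine and 80.3 to 103 CPM in tumours (0.41, SE 0.19, adjusted p = 0.134). Counts over a whole gene in whole tissue do not show whether its floxed exons are gone. CPM are counts scaled to library size, here with edgeR's TMM factors. Summed over 8 epithelial markers, WT libraries held 10854 to 13348 CPM and tumours 10859 to 16041 CPM. Of these 8, 2 were called higher and 1 lower, with log2 fold changes from -1.07 to 2.40. The summed level of 8 Paneth cell markers was 12983 to 15743 CPM in WT and 324 to 819 CPM in tumours, and all 8 were called lower. The 10 enterocyte markers summed to 42060 to 70588 CPM and 23125 to 28543 CPM, with 7 called lower. Fibroblast markers summed to 296 to 440 CPM in WT and 881 to 1271 CPM in tumours (5 of 8 called higher). Endothelial markers summed to 57.9 to 78.9 CPM and 108 to 152 CPM (4 of 7 higher), smooth muscle markers to 1260 to 1589 CPM and 618 to 913 CPM (5 of 8 lower), and goblet cell markers to 8946 to 10201 CPM and 4105 to 7195 CPM (4 of 7 lower). No gene of these 7 lists was at 0 in any library. The 9 T and B cell markers in the table summed to 1489 to 1838 CPM in WT. In DKO tumours 1 to 3 they summed to 3216, 963 and 1452 CPM. A single gene of this list averaged 1718 CPM over the 6 libraries, so the sums mostly follow that gene. Of these markers 2 were called higher and 1 lower, and 1 was at 0 in some library. The part of these shifts in the results below was not tested.

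The promoters of Atg9b and of the lysosomal genes called higher are shown because these genes carried the largest rises of the set. Each run covers 250 bases before and 50 after the transcription start in RefSeq (build GRCm38.p6), 5′ to 3′ on the gene's strand. The positions are chr5:24392094-24392393 (minus strand) for Atg9b, chr7:142387778-142388077 (minus) for Ctsd, chr13:64370471-64370770 (minus) for Ctsl and chr17:34931003-34931302 (plus) for Neu1. Capitals mark the E-box CACGTG, which is the core of the element that TFEB and TFE3, the transcription factors of lysosomal genes, are known to bind.
Atg9b: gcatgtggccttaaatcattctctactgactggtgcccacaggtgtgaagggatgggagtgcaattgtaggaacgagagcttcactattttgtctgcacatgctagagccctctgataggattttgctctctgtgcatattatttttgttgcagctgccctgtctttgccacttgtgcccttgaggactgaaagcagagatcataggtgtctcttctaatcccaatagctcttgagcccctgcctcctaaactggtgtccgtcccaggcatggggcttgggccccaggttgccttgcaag
Ctsd: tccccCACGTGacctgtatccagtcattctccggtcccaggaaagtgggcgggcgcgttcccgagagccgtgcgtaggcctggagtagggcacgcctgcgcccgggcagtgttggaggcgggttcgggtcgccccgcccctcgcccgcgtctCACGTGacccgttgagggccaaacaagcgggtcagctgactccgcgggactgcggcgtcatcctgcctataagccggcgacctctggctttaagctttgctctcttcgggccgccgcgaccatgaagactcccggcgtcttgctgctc
Ctsl: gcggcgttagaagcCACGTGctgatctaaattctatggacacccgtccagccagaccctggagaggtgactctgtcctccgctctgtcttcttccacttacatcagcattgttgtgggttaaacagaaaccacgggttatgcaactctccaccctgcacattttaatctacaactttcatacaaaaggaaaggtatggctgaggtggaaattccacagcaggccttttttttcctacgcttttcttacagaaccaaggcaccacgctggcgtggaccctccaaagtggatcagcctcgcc
Neu1: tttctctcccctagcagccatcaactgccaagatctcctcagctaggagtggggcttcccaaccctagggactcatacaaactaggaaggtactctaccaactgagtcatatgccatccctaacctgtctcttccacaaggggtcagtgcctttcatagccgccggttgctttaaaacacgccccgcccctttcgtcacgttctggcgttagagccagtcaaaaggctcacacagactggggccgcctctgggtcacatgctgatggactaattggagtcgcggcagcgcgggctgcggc

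The E-box CACGTG, which reads the same on both strands, was present at both 245 and 98 bases before the start of Ctsd, counted to its first base. The nearer copy lies in TCACGTGA, a longer form that contains the E-box. Ctsl held a single E-box 236 bases before the start, and Atg9b and Neu1 held none in this window. Promoters were found for 42 of the 49 members, and 8 of them (19%) held an E-box, against 8.09% of 27025 genes with a promoter. Among lysosomal members the count was 4 of 8, namely Ctsd, Ctsl, Lamp1 and Mcoln1. TCACGTGA was in 3 members (7.14%, against 1.12% of genes), Ctsd, Mcoln1 and Atg3. Of the 8 members with an E-box, Ctsd and Ctsl were called higher and the other 6 were not called. Over all genes tested, 15.9% were called higher and 13.8% lower, and 8 members are too few to compare with these shares. None of the 7 members called lower that had a promoter held an E-box in the window, too few genes to compare with 8.09%. The 27025 genes were not limited to those tested here.

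Atg9b encodes a paralogue of ATG9A, the multispanning membrane protein of the vesicles that seed the autophagosome. It was at 0.567, 0.236 and 0.584 CPM in WT intestine 1 to 3 (6, 3 and 9 counts) and reached 61.9, 100 and 96.3 CPM in the DKO tumours numbered 1 to 3 (1040, 1494 and 1299 counts). All 3 tumours were above every WT library by a wide margin, and the WT values rest on 18 counts in all. The log2 fold change was 7.51 (SE 0.34, adjusted p = 3.1e-05), and it lay between 7.20 and 7.77 when any 1 library was left out. Because Atg9b entered the test through the tumours alone, it had to be higher there, and its size rests on the few WT counts. With no filter on low counts the log2 fold change of Atg9b was 7.52 (adjusted p = 5.9e-06).

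Atg9b (chromosome 5, 24384181 to 24392143, minus strand) meets Nos3, the endothelial nitric oxide synthase gene on the plus strand, over 294 bases, or 7.5% of the exon bases of Atg9b. No source used here says whether counting used strand, and reads in those bases cannot be assigned to either gene. Nos3 itself was at 1.98, 1.34 and 3.05 CPM in WT intestine and 3.39, 3.96 and 4.74 CPM in tumours, with at most 64 counts in a library, and was not called (0.91, SE 0.34, adjusted p = 0.0757). Without WT intestine 3 its adjusted p was 0.0394, and under library totals 0.0375 (at 1.15). Endothelial markers, as given above, were also higher in sum in tumours, and their part in the Nos3 values was not tested. Nos3 was thus far below the tumour level of Atg9b in each library. Abcb8, the neighbour on the other side, was at 43.5 to 53.0 CPM and 55.7 to 61.9 CPM (0.28, SE 0.13, adjusted p = 0.134), and was called higher under library totals (0.55, adjusted p = 0.015).

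Atg9a, the widely expressed member of the pair, did not rise with Atg9b. It was at 114, 106 and 115 CPM in WT intestine and 62.8, 112 and 88.3 CPM in tumours (-0.35, SE 0.20, adjusted p = 0.23). DKO tumour 1 held the lowest level and DKO tumour 2 lay within the WT range. Per kilobase of exon, Atg9b made up 0.324% to 0.734% of the Atg9a and Atg9b level in WT libraries and 56.6% to 61.4% in tumours, a comparison chosen after the values were seen. With the length of the longest coding transcript the tumour share was 49.1% to 54.1%. A noncoding transcript on the same strand overlaps 31.8% of the exon bases of Atg9a, so its level per length is uncertain.

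**Figure D2:**
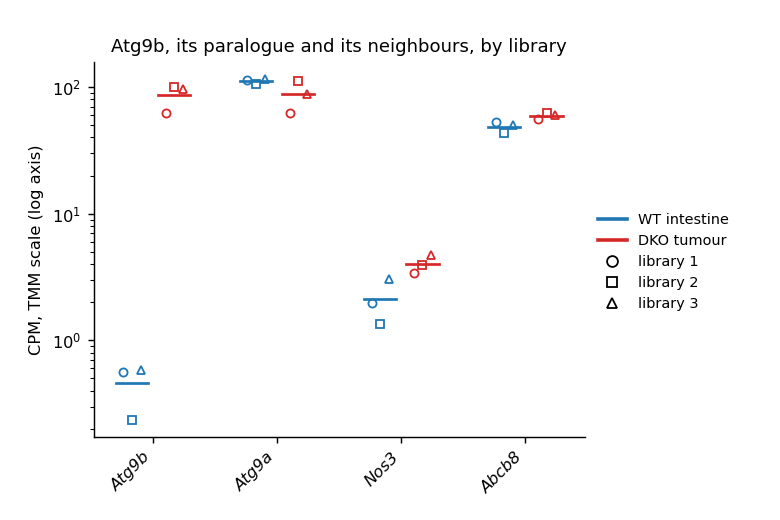
Level in each library, in CPM on a log axis, of Atg9b, its paralogue Atg9a and the neighbouring genes Nos3 and Abcb8. Blue is WT intestine, red is DKO tumour, symbols are the 3 libraries of a group and bars their mean. Atg9b lay at 0.236 to 0.584 CPM in WT and 61.9 to 100 CPM in tumours, while Nos3 did not exceed 4.74 CPM and Atg9a and Abcb8 were not called.

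The remaining genes for lipid supply and membrane marking were not called. Atg2a and Atg2b, lipid transfer proteins that work with ATG9, had log2 fold changes of 0.11 (SE 0.14) and -0.09 (SE 0.13). Wipi1 and Wipi2, which bind the lipid made by the PI3-kinase complex, were at 0.24 (SE 0.17) and -0.34 (SE 0.14). Wipi2 was at 61.6, 73.1 and 81.5 CPM in WT intestine and 58.7, 55.4 and 56.3 CPM in tumours (adjusted p = 0.0944), and it was called lower without WT intestine 1 (-0.45, adjusted p = 0.0271).

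The initiation complex moved in both directions, with Rb1cc1 and Ulk2 called lower and Atg101 higher. Of its 5 genes this is 40% lower and 20% higher, beside 13.8% and 15.9% of all genes tested. Rb1cc1 encodes FIP200, the scaffold of the complex, and was at 119, 163 and 131 CPM in WT intestine and 91.4, 74.8 and 74.0 CPM in tumours. The log2 fold change was -0.78 (SE 0.16, adjusted p = 0.0106). The groups did not overlap, and the call was lost when DKO tumour 3 was left out (adjusted p = 0.0555) or under library totals (0.0631). Ulk2, a starting kinase, was at 50.2, 46.2 and 42.7 CPM and at 33.3, 34.5 and 33.2 CPM (-0.46, SE 0.12, adjusted p = 0.0272). The 3 tumours were nearly equal for Ulk2, and the call ended without WT intestine 2 (0.0885) or either of DKO tumours 2 (0.0628) and 3 (0.106) and under library totals (0.247, at -0.20). Atg101, the partner of ATG13, went from 12.4, 16.4 and 16.6 CPM to 22.5, 22.4 and 26.7 CPM (0.65, SE 0.17, adjusted p = 0.0249). Every tumour was above every WT library for Atg101, and the call ended without WT intestine 2 (0.0622), WT intestine 3 (0.0506) or DKO tumour 3 (0.105).

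Ulk1, the kinase related to Ulk2, and Atg13 were not called. Ulk1 was at 26.2 to 29.7 CPM in WT intestine and 22.5 to 26.7 CPM in tumours (-0.20, SE 0.14, adjusted p = 0.29, and 0.05 under library totals). Atg13 was at 39.3, 54.7 and 54.0 CPM and at 34.5, 40.7 and 33.6 CPM (-0.44, SE 0.17, adjusted p = 0.0811), and without WT intestine 1, its lowest WT library, it was called lower (-0.59, adjusted p = 0.0187).

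None of the 6 genes of the PI3-kinase complex was called, and their log2 fold changes ran from -0.30 to 0.32. Over all genes tested, 15.9% were called higher and 13.8% lower. The kinase Pik3c3 (VPS34) and its regulatory subunit Pik3r4 (VPS15) lay on the positive side, at 0.26 (SE 0.14, adjusted p = 0.183) and 0.32 (SE 0.13, adjusted p = 0.1). Under library totals these became calls (adjusted p = 0.0446 and 0.0128), and with upper-quartile factors Pik3r4 did (0.0438). Becn1, the Beclin scaffold, was at 241, 193 and 179 CPM in WT intestine and 164, 167 and 168 CPM in tumours (-0.30, SE 0.15, adjusted p = 0.171). Atg14, which directs the complex to autophagosomes, was at -0.30 (SE 0.14, adjusted p = 0.134), and Uvrag, its alternative partner, at 0.16 (SE 0.13, adjusted p = 0.353). The groups did not overlap, tumours above WT, in 3 of the 6 genes (50%, against 25.1% of all genes tested). Tumours lay below WT in 2 (33.3%, against 22.9%). Ambra1, a regulator of Beclin, overlapped (-0.11, SE 0.16, adjusted p = 0.654). Of the exon bases of Becn1, 43.9% are shared with Cntd1 on the opposite strand.

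Among the 11 genes of the conjugation system, only the ATG8 proteases Atg4c and Atg4d were called, both lower. This is 18.2% lower and 0% higher, beside 13.8% and 15.9% of all genes tested. Atg4d was at 112, 82.3 and 72.0 CPM in WT intestine and 51.2, 54.8 and 56.3 CPM in tumours (-0.72, SE 0.18, adjusted p = 0.0203). WT intestine 1 was the highest library, and the call ended without WT intestine 2 (0.0519) or DKO tumour 3 (0.067). Atg4c was at 35.2, 38.2 and 37.8 CPM and at 23.5, 27.3 and 24.5 CPM (-0.56, SE 0.13, adjusted p = 0.0146). The groups were well apart for Atg4c, but its call ended without WT intestine 2 (0.0621), WT intestine 3 (0.0535) or DKO tumour 3 (0.069), and under library totals (0.15, at -0.31). Their relatives Atg4a (0.10, SE 0.22) and Atg4b (-0.12, SE 0.14) were not called. Atg4d shares 19.3% of its exon bases with Kri1 on the other strand.

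None of the other conjugation genes was called. Atg7, the activating enzyme, stood at 0.14 on the log2 scale (SE 0.17, adjusted p = 0.562). Atg3, which transfers ATG8 to lipid, was at 82.0, 74.9 and 68.5 CPM in WT intestine and 57.4, 61.6 and 57.1 CPM in tumours (-0.36, SE 0.12, adjusted p = 0.0621), and DESeq2 called it lower (0.0467). Atg10, which transfers ATG12, was low, at 3.30 to 4.16 CPM and 4 to 6.07 CPM (0.38, SE 0.25). Atg12 itself was at 58.2, 68.7 and 65.7 CPM and at 57.6, 39.4 and 42.3 CPM (-0.47, SE 0.17, adjusted p = 0.0734), a difference called without DKO tumour 1 (-0.65, adjusted p = 0.014). Its conjugation partner Atg5 was at -0.25 (SE 0.14, adjusted p = 0.199). Atg16l1, the scaffold that places the conjugate on the membrane and carries a Crohn disease variant in humans, was at 33.5, 37.8 and 32.3 CPM and at 33.2, 43.2 and 40.4 CPM (0.17, SE 0.15, adjusted p = 0.402). Atg16l2, its homologue, was at 3.87 to 4.64 CPM and 3.10 to 4.22 CPM (-0.20, SE 0.23).

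In the ATG8 family, whose proteins coat the autophagosome and bind receptors, Gabarap was called lower and Gabarapl1 higher. Each is 20% of the 5 genes, beside 13.8% lower and 15.9% higher over all genes tested. Gabarap was at 401, 318 and 282 CPM in WT intestine and 230, 232 and 223 CPM in tumours (-0.55, SE 0.17, adjusted p = 0.0433). The tumours were alike and all below WT, of which WT intestine 1 was the highest. The call for Gabarap held in 1 of the 6 refits without a library, that without WT intestine 3, and ended without WT intestine 1 (0.0503), WT intestine 2 (0.104) or any 1 tumour (0.0654 to 0.146). It ended as well with no filter (0.0542), with upper-quartile factors (0.0668) and under library totals (0.166, at -0.27). Gabarapl1 was at 15.2, 13.7 and 15.1 CPM and at 28.8, 21.0 and 20.7 CPM (0.68, SE 0.18, adjusted p = 0.0238). DKO tumour 1 was the highest, every tumour exceeded every WT library, and the call ended without WT intestine 2 (0.0929) or WT intestine 3 (0.0631). Of the exon bases of Gabarapl1, 28.3% are shared with 1700101I11Rik on the opposite strand.

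The LC3 genes did not differ detectably. Map1lc3b, the member most used as an autophagosome marker, was at 43.3, 57.6 and 50.8 CPM in WT intestine and 58.5, 51.1 and 53.5 CPM in tumours (0.11, SE 0.14, adjusted p = 0.613). Map1lc3a was at 17.8, 9.99 and 12.1 CPM and at 13.0, 14.6 and 15.3 CPM (0.11, SE 0.23, adjusted p = 0.742). Gabarapl2 was at 28.3, 18.8 and 17.7 CPM and at 20.0, 16.4 and 17.0 CPM (-0.27, SE 0.21, adjusted p = 0.35, and 0.01 under library totals). For all 3 genes the groups overlapped. Per kilobase of exon, Gabarap made up 82.6% to 84.8% of the family's level in WT libraries and 74.9% to 77.4% in tumours, and Gabarapl1 2.93% to 4.05% and 6.42% to 8.60%. A change in RNA level says nothing of lipid attachment, by which these proteins are usually followed.

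Of the 5 receptors, which link ubiquitinated or other cargo to ATG8, Optn and Nbr1 were called lower and none higher. That is 40% lower, beside 13.8% of all genes tested, and 0% higher, beside 15.9%. Optn encodes optineurin, a receptor for bacteria and mitochondria, and was at 304, 279 and 257 CPM in WT intestine and 132, 130 and 140 CPM in tumours. The tumours were nearly equal and all far below WT. The log2 fold change was -1.06 (SE 0.13, adjusted p = 0.00148), or 2.09-fold lower, and the call was kept in all 6 refits without a library. Nbr1, a receptor with a PB1 domain like p62, was at 189, 288 and 299 CPM and at 187, 141 and 154 CPM (-0.68, SE 0.21, adjusted p = 0.0424). WT intestine 1 and DKO tumour 1 nearly met for Nbr1. The call was kept without WT intestine 1 or DKO tumour 1 and ended without any 1 of the other 4 libraries (0.117 to 0.139), with upper-quartile factors (0.0725) and under library totals (0.2).

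Sqstm1, which encodes p62, lay just outside the threshold. It was at 170, 140 and 155 CPM in WT intestine and 205, 210 and 197 CPM in tumours, so that every tumour was above every WT library. The log2 fold change was 0.39 (SE 0.13, adjusted p = 0.0575), about 1.31-fold. It was called higher without WT intestine 1 (0.0294), by DESeq2 (0.0367), with upper-quartile factors (0.0288) and under library totals (0.00728). No other refit without 1 library called Sqstm1, and the adjusted p reached 0.205. Of its exon bases, 17.3% are shared with Mrnip on the opposite strand.

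Tax1bp1 and Calcoco1, related receptors, overlapped between the groups. Tax1bp1 was at 592, 712 and 583 CPM in WT intestine and 727, 560 and 622 CPM in tumours (0.02, SE 0.18, adjusted p = 0.948). Calcoco1 was at 9.26, 13.8 and 14.7 CPM and at 13.9, 14.2 and 17.3 CPM (0.26, SE 0.21, adjusted p = 0.385). Per kilobase of exon, Optn held 31.2% to 36.8% of the level of the 5 receptors in WT libraries and 17.7% to 20.3% in tumours. Sqstm1 held 18.0% to 23.1% and 30.8% to 35.5%. By the longest coding transcript these shares were 24.2% to 28.9% and 12.9% to 15.1% for Optn, and 11.9% to 15.8% and 19.6% to 23.6% for Sqstm1.

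**Figure D3:**
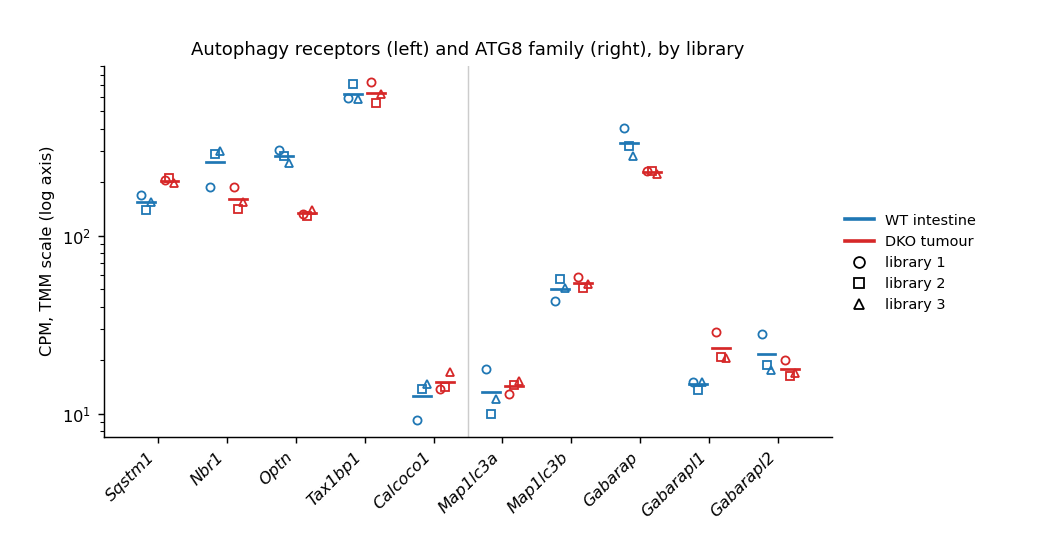
Level in each library, in CPM on a log axis, of the 5 receptors (left) and the 5 ATG8 genes (right). Blue is WT intestine, red is DKO tumour, symbols are libraries and bars group means. Optn fell from 257 to 304 CPM in WT to 130 to 140 CPM in tumours, and Gabarapl1 was the ATG8 gene whose tumours all lay above WT.

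The 9 lysosomal members split, with the proteases Ctsl and Ctsd and the sialidase Neu1 called higher, Hexa lower and 5 not called. The shares are 33.3% higher and 11.1% lower, beside 15.9% and 13.8% of all genes tested. Ctsl, a cysteine protease, was at 77.3, 42.3 and 45.7 CPM in WT intestine and 124, 118 and 148 CPM in tumours (1.24, SE 0.24, adjusted p = 0.00813), about 2.36-fold, and the call was kept in all 6 refits. Neu1, which removes sialic acid from glycoproteins, was at 60.5, 53.0 and 48.1 CPM and at 77.8, 157 and 121 CPM (1.14, SE 0.25, adjusted p = 0.0123). DKO tumour 1 was the lowest tumour for Neu1, though still above WT, and without WT intestine 2 the adjusted p was 0.0505. Ctsd, the main aspartic protease, was at 298, 206 and 198 CPM and at 430, 336 and 418 CPM (0.75, SE 0.21, adjusted p = 0.0287). The groups did not overlap for Ctsd, and the call ended without WT intestine 2 (0.114), WT intestine 3 (0.089) or either of DKO tumours 1 (0.053) and 3 (0.101). Exons of another gene model on the same strand cover 34.4% of those of Ctsd, and an antisense model covers 26.8% of those of Ctsl.

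Hexa, the alpha subunit of beta-hexosaminidase, was at 132, 119 and 110 CPM in WT intestine and 94.5, 61.8 and 57.2 CPM in tumours (-0.76, SE 0.20, adjusted p = 0.0272). DKO tumour 1 was nearest to WT, and the call was kept only without that tumour, ending without any other single library (0.0537 to 0.103) and under library totals (0.101). Hexa shares 12.8% of its exon bases with Tmem202 on the opposite strand.

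The remaining 5 lysosomal members were not called. Lamp1, an abundant membrane glycoprotein, was at 930, 686 and 671 CPM in WT intestine and 657, 555 and 605 CPM in tumours (-0.33, SE 0.19, adjusted p = 0.22). Lamp2, its relative, was at 235, 315 and 286 CPM and at 361, 172 and 199 CPM (-0.19, SE 0.28, adjusted p = 0.639). DKO tumour 1 was the highest of all libraries for Lamp2, and without it Lamp2 was called lower (-0.59, adjusted p = 0.0454). Ctsb (0.06, SE 0.21) and Ctsz (0.14, SE 0.21), both cysteine proteases, and Mcoln1, the calcium channel TRPML1 (-0.10, SE 0.23, and 0.18 under library totals), overlapped between groups.

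WT intestine 1 held the highest WT level of 8 of the 9 lysosomal members, all but Lamp2, and of 4 of the 5 ATG8 genes. Its enterocyte markers summed to 70588 CPM, against 45788 and 42060 CPM in WT intestine 2 and 3. Without that library, Ctsl was at 1.56, Ctsd at 0.96 and Neu1 at 1.22 on the log2 scale. Because macrophages are rich in lysosomes, their markers were summed as well. The 12 macrophage and dendritic cell markers in the table summed to 277 to 315 CPM in WT libraries and 262 to 290 CPM in tumours, with 4 called higher, 1 lower and none at 0 in any library. The 7 neutrophil markers summed to 10.1 to 17.4 CPM and 36.4 to 53.3 CPM, with 5 called higher and 3 at 0 in some library. The part of either cell type in the lysosomal values was not tested.

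**Figure D4:**
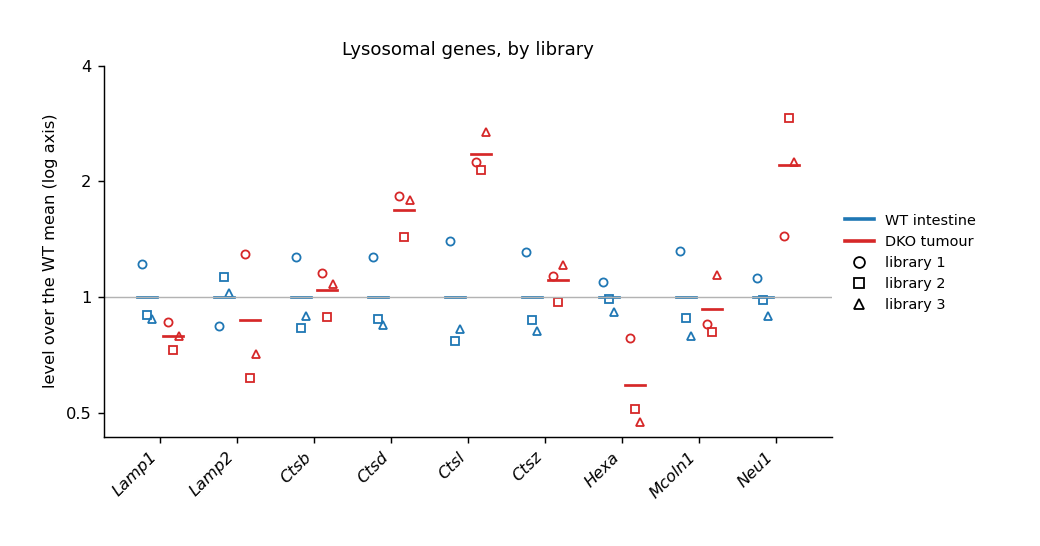
Level of each lysosomal member in each library, divided by its WT mean, on a log axis. Blue is WT intestine, red is DKO tumour, symbols are libraries and bars group means. Ctsl, Neu1 and Ctsd lay above WT in all 3 tumours and Hexa below it, and WT intestine 1 (blue circles) was the highest WT library except for Lamp2.

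Tfeb and Tfe3, the transcription factors that drive lysosomal genes when they enter the nucleus, were not called. Tfe3 was at 45, 36.2 and 37.7 CPM in WT intestine and 45.6, 51.6 and 51.9 CPM in tumours (0.33, SE 0.14, adjusted p = 0.112). The tumours were all above WT, by a narrow margin for DKO tumour 1, and Tfe3 was called higher without WT intestine 1 (0.0385) and under library totals (0.0107). No other refit without 1 library called Tfe3, and the adjusted p reached 0.306. Tfeb was at 25.7, 16 and 14.7 CPM and at 13.6, 16.9 and 15.0 CPM (-0.31, SE 0.24, adjusted p = 0.355), with WT intestine 1 apart from the rest.

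Other lysosomal hydrolases and membrane proteins were called higher in 10 of 41 tested genes (24.4%, against 15.9% of all genes) and lower in 1 (2.44%, against 13.8%), with a median log2 fold change of 0.14. Gusb, beta-glucuronidase, was at 33.7, 27.0 and 25.1 CPM in WT intestine and 99.5, 134 and 129 CPM in tumours (2.08, SE 0.18, adjusted p = 0.000321). Lgmn, legumain, a protease that matures cathepsins, was at 53.6, 43.4 and 49.2 CPM and at 119, 128 and 149 CPM (1.44, SE 0.14, adjusted p = 0.000616). Ctsk, a collagen-degrading cathepsin, was at 2.08 to 2.34 CPM and 5.48 to 9.19 CPM (1.76, SE 0.26, adjusted p = 0.00275). These 3 genes separated the groups and kept their calls in all 6 refits. Not all of the 10 calls were as stable. Lipa, Asah1, Man2b1 and Ctsh each lost theirs in some refits, with adjusted p reaching 0.104, 0.0568, 0.0768 and 0.0529. The number of genes of this list called higher ran from 6 to 12 over the refits, and that of all genes from 1159 to 2368. Of the 16 V-ATPase subunits tested, which acidify the lysosome, Atp6v0a1 was called higher (0.55, SE 0.15, adjusted p = 0.031) and Atp6v0a2 lower (-0.45, SE 0.13, adjusted p = 0.0369), with a median of -0.01 over the list. Each call is 6.25% of the subunits tested, beside 15.9% higher and 13.8% lower over all genes tested. Neither call was stable. That for Atp6v0a1 ended when a library numbered 2 or 3 of either group was left out (0.0827 to 0.111), and that for Atp6v0a2 without any 1 library but WT intestine 1 (0.0534 to 0.116). Atp6v0c, the proteolipid subunit, is listed at 0 in all 6 libraries. How reads shared by near-identical genes were counted is not given, so this 0 need not mean absence.

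In the list of further autophagy genes, 4 of 37 tested were called higher (10.8%) and 6 lower (16.2%), with a median of -0.06. These shares lie near the 15.9% and 13.8% of all genes. Ncoa4, the receptor for ferritin, was at 38.5, 36.3 and 31.9 CPM in WT intestine and 244, 54.8 and 167 CPM in tumours (2.13, SE 0.46, adjusted p = 0.0127). The tumours differed 4.45-fold among themselves for Ncoa4, and without WT intestine 2 the adjusted p was 0.0503. Vps18 (0.62, SE 0.14), of the tethering complex that joins autophagosome and lysosome, and the mitochondrial receptor Bnip3l (0.57, SE 0.13) were also called higher (adjusted p = 0.0135 and 0.015). The former call ended without WT intestine 2 (0.0637) or DKO tumour 3 (0.066), and the latter without WT intestine 3 (0.0574) or DKO tumour 3 (0.0579). Wdr45, a WIPI relative (-0.70, SE 0.17, adjusted p = 0.0196), Dram2 (-0.61, SE 0.16, adjusted p = 0.0239) and Tbk1, the kinase that phosphorylates optineurin and p62 (-0.62, SE 0.18, adjusted p = 0.0338), were called lower. Wdr45 and Dram2 lost the call when a library numbered 2 or 3 of either group was left out (0.0553 to 0.108), Tbk1 without any 1 library but DKO tumour 1 (0.0573 to 0.0981), and all 3 under library totals (0.105 to 0.166).

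**Figure D5:**
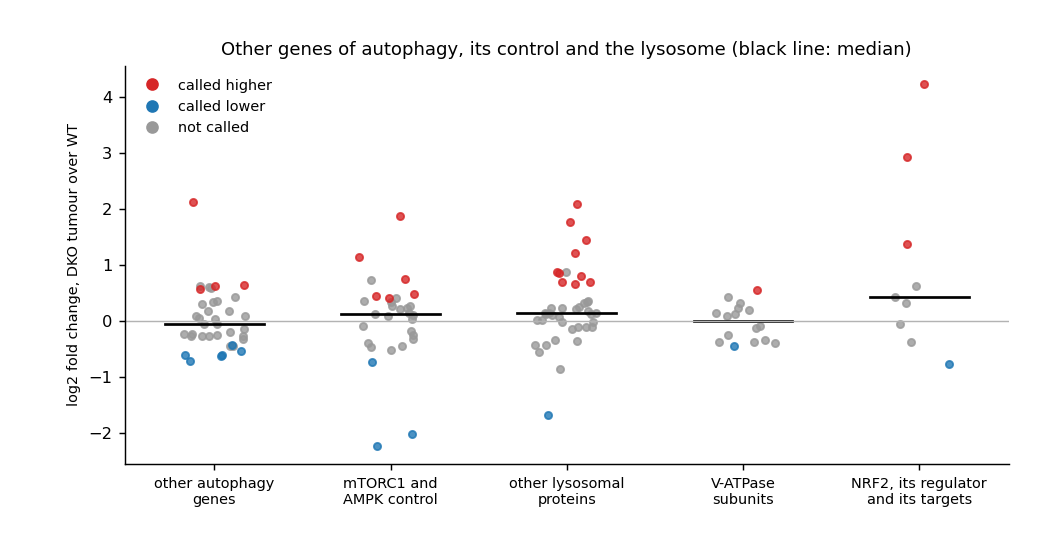
Log2 fold change (DKO tumour over WT intestine) of each tested gene in 5 wider lists, with the list median as a black line. Red points were called higher, blue lower and grey not called. The medians lie between -0.06 (other autophagy genes) and 0.42 (NRF2, its regulator and its targets), with single genes between -2.23 (Sesn1) and 4.23 (Slc7a11).

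Of 30 tested genes that control autophagy through mTORC1 and AMPK, 6 were called higher (20%) and 3 lower (10%), with a median of 0.13, beside 15.9% and 13.8% of all genes. Sesn1, a sestrin that restrains mTORC1, was at 178, 196 and 177 CPM in WT intestine and 45, 37.7 and 35.1 CPM in tumours (-2.23, SE 0.14, adjusted p = 0.000128). Rragd, a Rag GTPase that places mTORC1 on the lysosome and a known TFEB target, was at 140, 210 and 171 CPM and at 62.5, 22.6 and 44.2 CPM (-2.01, SE 0.35, adjusted p = 0.0051). Both fell in every tumour. Ddit4, a stress-induced inhibitor of mTORC1, was at 29.9, 17.4 and 18.6 CPM and at 57.1, 102 and 81.4 CPM (1.87, SE 0.28, adjusted p = 0.00284). Fnip2, a folliculin partner (1.14, SE 0.18, adjusted p = 0.00333), and Prkaa2, a catalytic subunit of AMPK (0.75, SE 0.17, adjusted p = 0.0141), were called higher and Prkag2, a regulatory subunit, lower (-0.73, SE 0.13, adjusted p = 0.00638). Leaving out any 1 library kept these calls, except that Prkaa2 lost it without WT intestine 2 (0.0501) or DKO tumour 3 (0.0555).

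NRF2 targets and PB1 domain proteins, both tied to p62, were listed as well. The p62 protein binds KEAP1, which holds NRF2 in check, and Sqstm1 is itself a target of NRF2. Of 9 genes, Slc7a11, a cystine transporter, went from 0.661, 1.42 and 1.88 CPM to 35.0, 16.3 and 25.7 CPM (4.23, SE 0.41, adjusted p = 0.000569). Nqo1, a quinone reductase, went from 33.5, 31.4 and 32.0 CPM to 80.9, 73.1 and 96.0 CPM (1.37, SE 0.14, adjusted p = 0.000655), and Hmox1, heme oxygenase, rose by 2.93 (SE 0.30, adjusted p = 0.000655). The 3 rises are 33.3% of the list, beside 15.9% of all genes tested, and these calls were kept in all 6 refits. Srxn1, sulfiredoxin, was called lower (-0.77, SE 0.20, adjusted p = 0.025), which is 11.1% of the list, beside 13.8% of all genes tested. That call was lost when WT intestine 2 (0.0717) or either of DKO tumours 1 (0.0504) and 3 (0.107) was left out, and under library totals (0.0675). Of the 9 log2 fold changes, 6 were positive. Apart from Srxn1 and the 3 rises, 5 genes were not called, Gclm and Nfe2l2 (NRF2) itself among them (-0.06, SE 0.17 for Nfe2l2). Of these, Txnrd1 and Keap1 were called higher with upper-quartile factors (adjusted p = 0.032 and 0.0375), and Txnrd1 by DESeq2 (0.00947). Gclc was called higher without WT intestine 1 (0.00523). Txnrd1, Keap1 and Gclc were all called higher under library totals (0.0123, 0.0116 and 0.0324). Of 8 genes for PB1 domain proteins, Prkcz and Map3k2, a kinase of the ERK5 cascade (-0.73, SE 0.13, adjusted p = 0.00575), were called lower and none higher. This is 25% lower and 0% higher, beside 13.8% and 15.9% of all genes tested, and Prkcz is itself a targeted gene.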

How the data were processed

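Poly(A) RNA of 6 small intestinal samples was sequenced with a directional kit and single-end reads, per the labels' protocols. The deposited values are raw read counts per gene symbol, 1 column per mouse. STAR, DESeq2 and the build mm10 are named in the submitters' processing notes, with no version. Nothing on the counter, its annotation, its use of strand or reads shared by near-identical genes is given in the sources used here. The sheet's title names normal DKO tissue and its headers DKO tumours, and the headers were followed. Of 23420 rows, 27 held a spreadsheet date in place of a symbol (0.218% to 0.241% of a library's counts) and were set aside.

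Genes with at least 10 counts in at least 3 libraries were tested after TMM scaling by edgeR 4.0.16 (quasi-likelihood, R 4.3.3), and p-values were adjusted by Benjamini-Hochberg over all 13866 genes. The script was tested on simulated data. The SE is the log2 fold change divided by the root of its F statistic. Levels between genes were divided by merged exon length from GENCODE M21 (the same build), and promoters came from RefSeq. Alternatives were DESeq2 1.42.0, other scalings and filters, a replicate block, and refits without each library over the same genes. Every member was to be accounted for; of each wider list the 3 rises and 3 falls with the smallest adjusted p were to be named, and other genes such as Nfe2l2 and Atp6v0c were chosen after their values were seen. The gene called lower among the other lysosomal genes is not reported here. The members and lists were chosen with earlier results of these data known. P-values measure the spread between these mice.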

Additional observations from a re-analysis of the deposited data

How the results depend on the processing

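Of the 14 calls among members, those for Optn and Ctsl were kept in all 6 refits without 1 library. That for Atg9b was kept as well, but Atg9b entered the test through the tumours alone and had to be higher there. Counts without 1 library ranged from 2 to 8 members higher and from 1 to 9 lower; in receptors from 0 to 1 higher and from 1 to 2 lower; in the ATG8 family from 0 to 1 in either direction; in core Atg genes from 1 to 2 higher and from 0 to 6 lower; and in lysosomal genes from 1 to 3 higher and from 0 to 2 lower. Over all genes they ranged from 1159 to 2368 higher and from 883 to 2129 lower. Library totals in place of TMM, which moved the median of all genes by 0.26, gave 3779 genes higher and 1065 lower, 10 members higher and 2 lower, 1 receptor in each direction, 4 core Atg genes higher and 1 lower, and 0 ATG8 and 0 lysosomal genes lower. The median of the members was then 0.16 and that of all genes 0.27. With upper-quartile factors 1 receptor was called higher, 1 lower and 0 ATG8 genes lower; with DESeq2's test 1 receptor was called higher; without a filter 0 ATG8 genes were called lower. The numbers in the titles did not pair the samples (correlations of deviations 0.02, 0.01 and -0.03), and with a replicate block 5 members were called lower, 1 of them a receptor and 0 in the ATG8 family, and 6 higher. The members that lost the call were Nbr1 (adjusted p = 0.102), Gabarap (0.0821) and Ulk2 (0.0611), and over all genes 1788 were higher and 1508 lower.

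Signs turned only in members that were not called. Under library totals these were Gabarapl2 (0.0056), Ulk1 (0.052), Ambra1 (0.15), Atg2b (0.16), Atg4b (0.15), Atg5 (0.0099), Atg16l2 (0.048), Lamp2 (0.062) and Mcoln1 (0.18), and with DESeq2's factors or test Tax1bp1 (-0.0017). Without 1 library the range was -0.089 to 0.12 for Tax1bp1, -0.057 to 0.37 for Map1lc3a, -0.24 to 0.038 for Ambra1, -0.079 to 0.29 for Atg4a, -0.59 to 0.0062 for Lamp2, -0.057 to 0.27 for Ctsb and -0.26 to 0.15 for Mcoln1. The cause of these changes was not tested. With 3 libraries a group, the smallest change called among the members was -0.46 (Ulk2).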
